A study of Mus musculus with 6 samples.

Results

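Egfl7, Sox17, Kdr and Hif1a are 3 genes used to recognise blood vessel endothelium and 1 gene of the oxygen-sensing pathway, and their DNA methylation was read in mouse quadriceps, the large muscle of the front of the thigh. They were taken by gene symbol from a table of reduced representation bisulfite sequencing (RRBS), in which fragments rich in CpG dinucleotides are treated with bisulfite, so that unmethylated cytosines read as T and methylated ones as C. The 4 genes, of 10405 named genes in the table, had 5 of its 10755 regions of 3000 bp, since Egfl7 was listed under 2 transcripts, and 114 of its 268725 measured cytosines. The exercised group was 3 samples of C57BL/6 mice that ran on a motorised treadmill for 4 weeks, with DNA taken 3 hours after their last session. The sedentary group was 3 samples of untrained C57BL/6 mice, and no genetic change was given for either group. The labels give neither age nor sex, and nothing in them says that the samples of a group were separate animals, so the p-values measure only the spread between these samples. Whole muscle holds fibres, endothelium and other cells, so a change in the share of a cell type and a change of methylation within a cell type cannot be told apart, and markers of the tissue could not be checked because no RNA was measured.

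Endothelial cells line the capillaries that bring oxygen to muscle fibres, and endurance training is known to add capillaries to trained muscle. KDR, also called VEGF receptor 2, is the main receptor through which the growth factor VEGFA drives endothelial growth, EGFL7 is a protein that endothelial cells secrete into the matrix around growing vessels, and SOX17 is a transcription factor of arterial endothelium. HIF1A is the oxygen-regulated subunit of the transcription factor HIF-1, which is degraded when oxygen is plentiful and otherwise switches on genes such as Vegfa. CpG-rich promoters of vertebrate genes are as a rule unmethylated, in tissues that use the gene and often in those that do not.

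Among the 4 genes, only the Kdr promoter took more than 4 cytosines at a placement. Its sequence is shown so that each methylation value can be read against its CpG. The sequence is the minus strand of chr5:75978456-75978705 in RefSeq on GRCm38.p6, the 250 bases before the Kdr start, written 5′ to 3′, and capitals mark the 8 CpGs at which cytosines were measured. The 13 measured cytosines that lie here were placed by their spacing: of 61 shifts tried along the promoter, only 1 put every cytosine on a CpG. A shorter stretch is shown for Egfl7, the plus strand of chr2:26583780-26583839, 85 to 26 bases before the start of its second promoter in RefSeq, because it holds the most methylated member region. Its 3 cytosines are too few to fix a placement. They fell on the capitals at 2 adjacent shifts, which differ only in strand, and also fitted 1 shift on another Egfl7 promoter.
Kdr promoter: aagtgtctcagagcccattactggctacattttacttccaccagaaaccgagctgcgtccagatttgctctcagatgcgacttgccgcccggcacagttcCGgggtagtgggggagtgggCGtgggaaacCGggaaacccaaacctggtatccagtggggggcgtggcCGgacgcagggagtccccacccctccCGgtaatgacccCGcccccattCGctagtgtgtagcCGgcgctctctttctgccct
Egfl7 second start: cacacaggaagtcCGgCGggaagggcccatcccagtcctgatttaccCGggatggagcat

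Across the 6 samples, none of the 5 member regions separated exercised from sedentary muscle. The level of a region is the percentage of its reads, summed over its cytosines, that were methylated. A read that covers several cytosines counts once at each. The test was the quasi-likelihood test of edgeR on methylated and unmethylated counts. It was fitted over all regions with at least 3 positions and adjusted by Benjamini-Hochberg. All 5 adjusted p-values were 1.0. The sample ranges of the groups overlapped in all 5 regions, while over all regions they were separate in 7.25% of 10021. In 4.91% of these every exercised sample was above every sedentary one, as in 0 of the 5. The edgeR test called 0 of these 10021 regions at an adjusted p under 0.05 (0%), and so did limma. At an unadjusted p under 0.05 edgeR gave 237 (2.37%) and limma 384.

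**Figure D1:**
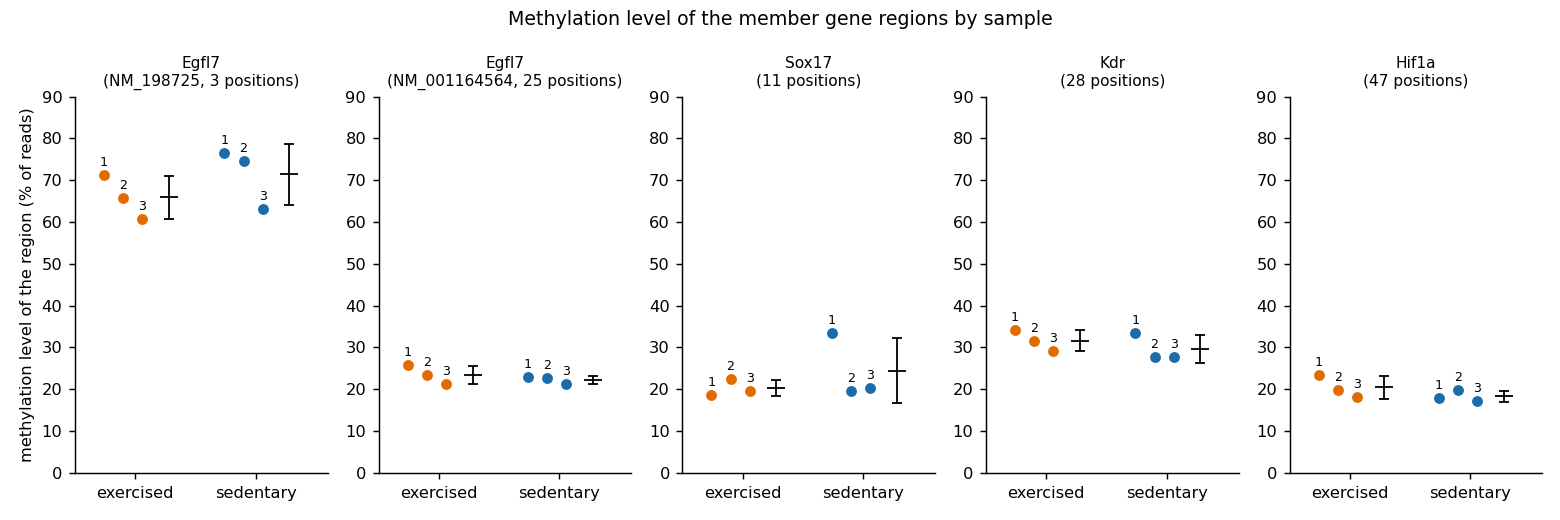
Methylation level of each member region, in percent of reads (y axis), for the 3 exercised (orange) and 3 sedentary (blue) samples, numbered as in the labels, with the group mean and SD as bars. Groups overlap in every panel, and the Sox17 value of sedentary sample 1, 33.4%, lies apart from the other 5.

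Kdr, the VEGF receptor gene, was measured at 28 cytosines of the region of transcript NM_010612 (mm9 chromosome 5, 76373454 to 76376453). Its level was 34.1%, 31.6% and 29.2% in the exercised samples, in the order 1 to 3, and 33.5%, 27.8% and 27.7% in the sedentary ones. The highest exercised and the highest sedentary sample lay within a point of each other, and the groups overlapped. The means were 31.6% ± 2.43 (SD, n = 3) in exercised and 29.7% ± 3.33 (SD, n = 3) in sedentary muscle. Their difference was 1.97 points (SE 2.38, exact two-sided permutation p = 0.5; edgeR p = 0.384), smaller than either SD. Each sample had 656 to 1551 reads summed over the 28 cytosines. Taken as independent, they gave 95% Wilson intervals of 2.31 to 3.42 points on either side of a level, for counting error only. Neighbouring cytosines can share reads, so these intervals may be too narrow.

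A region level of about 30% did not describe most single cytosines of Kdr. At 16 of the 28 positions the mean level was under 10%, and together these stood at 2.42% ± 1.07 in the exercised and 2.18% ± 0.794 in the sedentary samples (± SD of 3 samples). The other 12 positions stood at 55.7% ± 0.725 and 54.1% ± 2.72. Low and high cytosines lay in short runs: those from 76374342 to 76374366 were all low and those from 76374535 to 76374600 all high. Runs met within a few bases in places, as at 76374386 with 82.5% and 76374391 with 2.53%. Neither class differed between groups by more than 1.55 points (exact permutation p = 0.8 for the low and 0.5 for the high class).

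On the promoter sequence, the methylated Kdr cytosines were those in CCGG. CCGG is the site cut by MspI, the usual RRBS enzyme; the enzyme used here is not named in the labels. The 8 placed cytosines in CCGG had mean levels from 10.9% to 96.8%, with a median of 60.3%, and the 5 in other CpGs had mean levels from 1.99% to 5.15%. As a class, the CCGG cytosines had 53.9% ± 1.74 in the exercised and 53.6% ± 3.35 in the sedentary samples, and the others 4.22% ± 2.59 and 3.91% ± 0.913 (SD, n = 3). The distance between these classes was far larger than the spread between samples, and the distance between the groups, 0.265 and 0.312 points, was within it.

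Neighbouring CpGs show this contrast base by base, counted from the RefSeq start of Kdr. The CCGG at −20 read 96.8% on the strand of the gene and 22.3% on the opposite strand, although both belong to 1 CpG. Next to it, the CpG at −34 read 2.74% and 1.99% and that at −44 read 4.35% and 5.15% on these strands. The CCGG at −56 rose again to 46.3% and 61.7%, and that at −82 to 58.9% and 63.2%. On the strand of the gene alone, the CCGG at −120 read 72.2%, the other CpG at −130 read 4.96% and the CCGG at −150 read 10.9%. The CpG at −130 lies in GCGTG, which is a core of the HIF-binding motif.

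**Figure D2:**
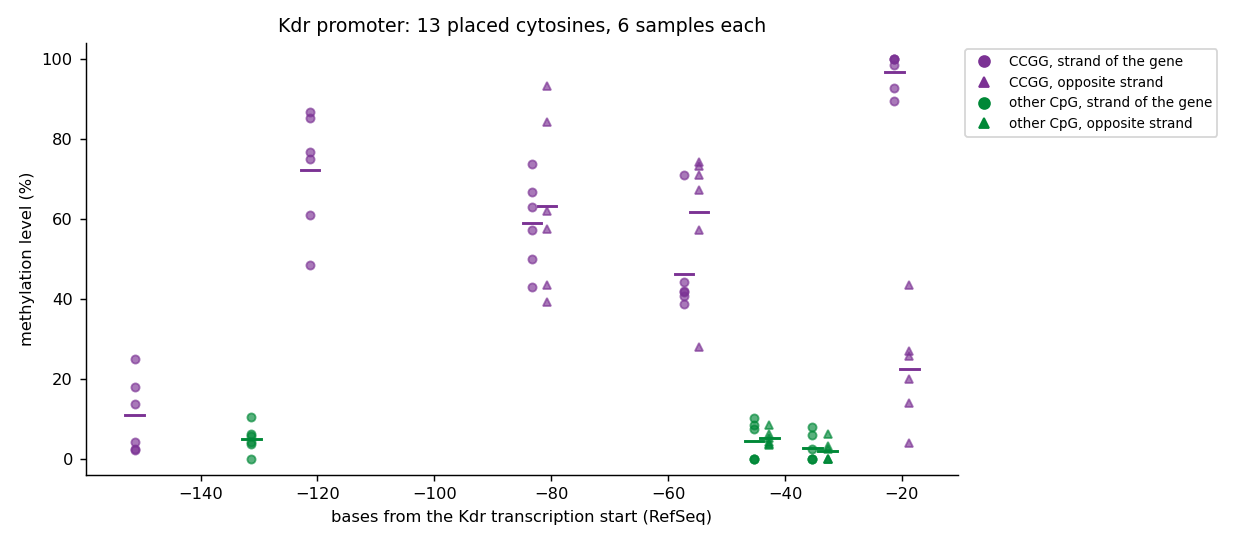
Methylation level in percent (y axis) of the 13 cytosines placed on the Kdr promoter, by distance in bases from the RefSeq start (x axis), with 1 point for each of the 6 samples and a bar at their mean. The 5 cytosines outside CCGG (green) have means up to 5.15%, and the 8 in CCGG (purple) have means from 10.9% to 96.8%.

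The same split was present over all regions that could be placed, taken as a whole, so it was not particular to Kdr. Among 2113 regions that could be placed on a RefSeq promoter in exactly 1 way, 9021 cytosines in CCGG had a median level of 66.9%, and 28050 in other CpGs had 1.45%. At CpGs read on both strands, the strands differed by a median of 74.2 points in CCGG and 1.16 points elsewhere. A level of 10% or more was found at 97.2% of the CCGG cytosines and 4.45% of the others. The fragment ends of an MspI library are filled in during preparation with cytosines from the reaction mix, which carry no information on the DNA of the sample. Whether such bases are among the deposited calls is stated in no source used here and was not tested, so the levels at CCGG, and the region levels in which they weigh most, may not be the methylation of the muscle DNA. In the 300 bases from 250 before to 50 after the start, Kdr holds 6 CCGG matches, the 3 Egfl7 starts hold 1, 3 and 1, and Hif1a holds 1, and 52.8% of all 32817 promoters hold at least 1. The motif ACGTG or GCGTG, searched on both strands, occurs 2 times for Kdr, 3 for Hif1a and 0, 0 and 1 times for the Egfl7 starts, and 43.8% of all promoters hold it.

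Hif1a, the gene of the oxygen-regulated HIF-1 subunit, was measured at 47 cytosines of the region of NM_010431 (mm9 chromosome 12, 75006854 to 75009853). Its level was 23.5%, 19.7% and 18.2% in the exercised samples and 18.0%, 19.7% and 17.2% in the sedentary ones. Exercised sample 1 was the highest, and the other 5 samples overlapped. The means were 20.5% ± 2.73 and 18.3% ± 1.27 (SD, n = 3), and 2.17 points apart (SE 1.74, exact permutation p = 0.2; edgeR p = 0.177). With 1641 to 3539 reads per sample, summed over cytosines, the Wilson intervals reached 1.31 to 1.83 points on either side, and may likewise be too narrow.

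The layout used was a start 2000 bases into each region, which held within 30 bases for 1686 of the 2113 regions placed in 1 way. By this layout, 1 Hif1a cytosine lay at −342 from the start and the others 224 to 809 bases after it. None fell on its RefSeq promoter window. At 34 positions the mean level was under 10%, and these stood at 2.44% ± 0.922 in the exercised and 1.91% ± 0.500 in the sedentary samples. The 13 others stood at 64.3% ± 3.10 and 63.7% ± 4.48. The differences within the classes, 0.532 and 0.572 points, were smaller than that of the whole region. The share of Hif1a reads that fell on the 13 methylated positions differed between samples: it was 34.5%, 28.7% and 24.4% in the exercised and 26.6%, 26.6% and 26.5% in the sedentary samples. Exercised sample 1, the highest in level, also had the highest share.

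The corresponding share for Kdr was 60.1%, 54.9% and 49.5% in the exercised and 58.5%, 47.0% and 53.2% in the sedentary samples. Here too the samples with the highest levels, number 1 of each group, had the highest shares. With each position weighted equally, in limma on levels, the difference was 0.664 points for Hif1a and 0.0914 points for Kdr. For Egfl7 (NM_001164564) the shares lay between 33.5% and 36.8%, and for Sox17 between 20.5% and 25.1%. In these 2 regions the sample with the highest level did not have the highest share. Exercised sample 1 of Egfl7 had 35.0%, below exercised sample 2 at 36.8%, and sedentary sample 1 of Sox17 had the lowest share. Over all positions of the table the shares lay between 28.3% and 32.5%.

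**Figure D3:**
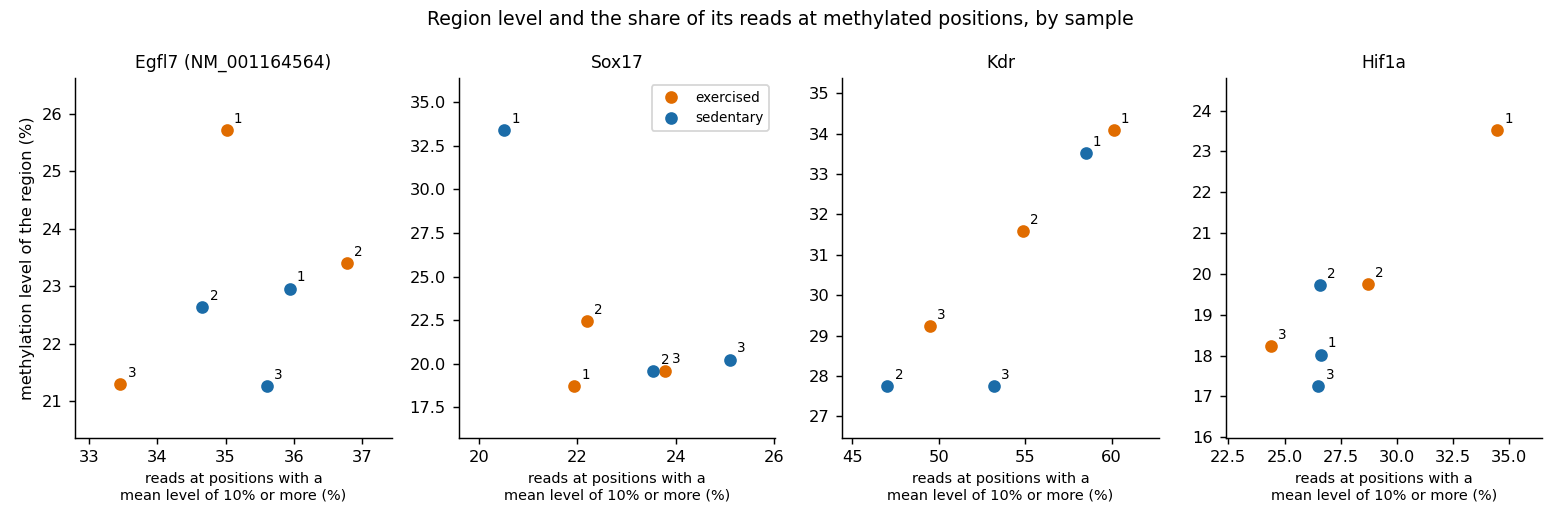
Methylation level of 4 member regions in percent (y axis) against the percentage of the region's reads at positions with a mean level of 10% or more (x axis), 1 point for each sample, numbered, with exercised in orange and sedentary in blue; axes do not start at 0. For Hif1a, exercised sample 1 is highest on both axes, 34.5% of reads and a level of 23.5%, and for Sox17 sedentary sample 1, at 33.4%, has the lowest share, 20.5%.

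Egfl7, the secreted endothelial factor, had very different region levels at its 2 listed starts, but unlike sets of cytosines were measured there. All 3 cytosines under NM_198725 had a mean level of 10% or more, while 16 of 25 under NM_001164564 were under 10%. The 9 others under NM_001164564 stood together at 57.6% to 69.6% in the 6 samples, against 60.8% to 76.5% for the 3. Whether the starts differ at comparable cytosines was not tested. The region of NM_198725 (mm9 chromosome 2, 26437384 to 26440383) held 3 cytosines, 70 to 36 bases before the layout start. Its level was 71.2%, 65.8% and 60.8% in the exercised and 76.5%, 74.6% and 63.2% in the sedentary samples. All 6 were high, and the groups overlapped. The means were 65.9% ± 5.20 and 71.4% ± 7.22 (SD, n = 3), and the difference was −5.50 points (SE 5.14, exact permutation p = 0.3; edgeR p = 0.253). Only 51 to 114 reads per sample, summed over the 3 cytosines, stand behind it. The Wilson intervals were 7.90 to 12.9 points on either side, each wider than the difference between the groups.

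The 3 cytosines differed among themselves, and not along the CCGG split: 26439317 lay outside CCGG under each of the 3 placements, and under the placement on the other promoter all 3 did. The cytosine at 26439314 was methylated in all reads of all 6 samples. That at 26439317 had 53.3%, 51.5% and 56.2% in the exercised and 80.0%, 72.7% and 47.6% in the sedentary samples. That at 26439348 had 65.5%, 52.1% and 31.6%, and 54.8%, 59.2% and 51.4%. Sedentary sample 3 was the lowest at 26439317 and exercised sample 3 at 26439348, on 21 and 19 reads, and the groups overlapped at both.

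The region of NM_001164564 (mm9 chromosome 2, 26440150 to 26443149), at a start further into Egfl7, was measured at 25 cytosines 41 to 302 bases after the layout start. Its level was 25.7%, 23.4% and 21.3% in the exercised and 23.0%, 22.6% and 21.3% in the sedentary samples. The 6 samples lay within 5 points and the groups overlapped. The means were 23.5% ± 2.21 and 22.3% ± 0.904 (SD, n = 3), and 1.19 points apart (SE 1.38, exact permutation p = 0.4; edgeR p = 0.470). At 16 positions the mean level was under 10%, and 8 stood alone, meaning that they were at 10% or more while the other positions within 100 bases had a median under 10%. The 8 stood at 65.9% ± 7.05 in the exercised and 61.7% ± 3.58 in the sedentary samples, and the 17 others at 2.83% ± 0.281 and 3.12% ± 1.64. Without the 8, the difference of the region was −0.281 points. The 17 others include 26442409, which had a mean level of 31.4% and a difference of −13.1 points. The 16 positions under 10% differed by 0.438 points, so the direction depended on which high cytosines were kept.

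Within that Egfl7 region, the cytosine at 26442221 had the widest gap between groups of any member position. Its level was 95.8%, 49.1% and 48.3% in the exercised and 32.3%, 43.8% and 45.3% in the sedentary samples. The groups did not overlap, but exercised sample 1 alone was far above the rest, on 24 reads. The means differed by 24.0 points (SE 16.3, exact permutation p = 0.1, the smallest that 3 against 3 allows; edgeR p = 0.201, adjusted p = 0.919).

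Sox17, the arterial transcription factor, was measured at 11 cytosines in 1 short stretch of the region of NM_011441 (mm9 chromosome 1, 4485495 to 4488494), from 4487165 to 4487209. Taking the gene to run on the minus strand, they lay at −715 to −671 from the layout start. Its level was 18.7%, 22.4% and 19.6% in the exercised and 33.4%, 19.6% and 20.2% in the sedentary samples. Sedentary sample 1 was higher than all others, and the other 5 lay within 4 points of each other. The means were 20.3% ± 1.94 and 24.4% ± 7.81 (SD, n = 3), a difference of −4.17 points (SE 4.65, exact permutation p = 0.6; edgeR p = 0.231). Without sedentary sample 1 the difference was 0.338 points, in the opposite direction.

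The high Sox17 value of sedentary sample 1 lay mainly at cytosines that were almost unmethylated in the other samples. At the 8 positions with a mean level under 10%, the level was 2.48%, 4.29% and 2.89% in the exercised and 18.4%, 2.18% and 2.16% in the sedentary samples. At the 3 other positions sedentary sample 1 stood at 91.8%, against 73.2% to 86.0% in the other samples. The 2 strands differed as well. On the first bases of the CpG pairs, sedentary sample 1 had 40 methylated of 137 reads summed over 4 positions, or 29.2%. The other samples had 2.86% to 4.67%. Each of the 4 positions had 34 or 35 reads in sedentary sample 1, so these may be largely the same reads counted at each. On the second bases, summed over 5 positions below the nearly full ones, sedentary sample 1 had 16 of 156 reads, or 10.3%, against 0.794% to 6.33%. At single cytosines it reached 38.2% at 4487171, 13 of 34 reads, 28.6% at 4487199, 26.5% at 4487204 and 23.5% at 4487192. The remaining pattern followed that of the other members: 4487165 and 4487208 were at 96.4% and 99.4% on average.

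**Figure D4:**
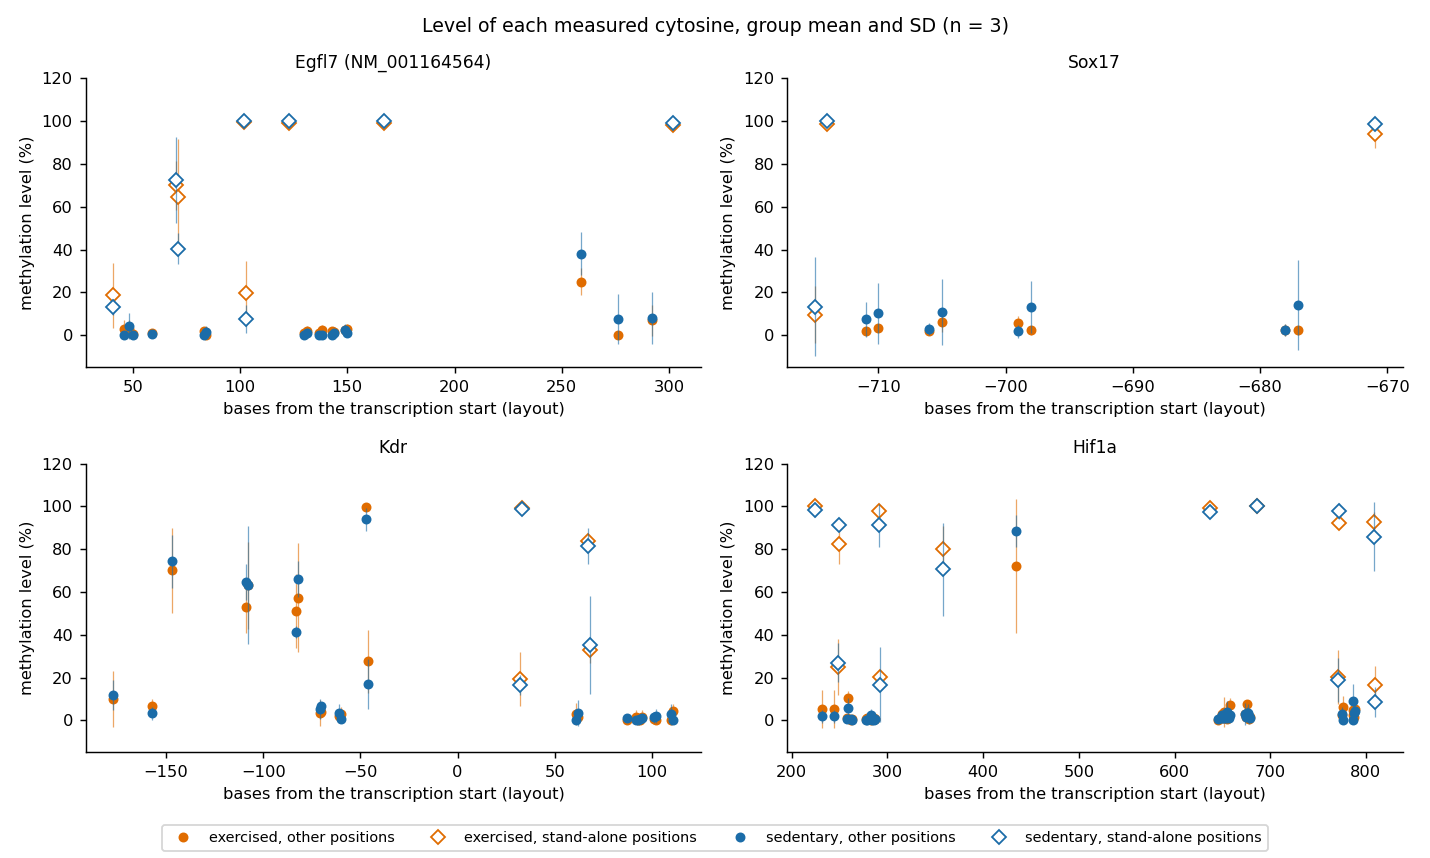
Mean level of each measured cytosine in percent, with SD over 3 samples (y axis), by distance in bases from the start placed 2000 bases into the region (x axis), for exercised (orange) and sedentary (blue) samples in 4 member regions; the Hif1a cytosine at −342 is left out, and for Kdr this start lies 27 bases from the RefSeq one. Open diamonds, the stand-alone positions, lie above neighbours that are mostly near 0.

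Of the 114 member cytosines, 74 (64.9%) had a mean level under 10%, against 69.0% of all positions. Among the other 40, 3 of 3 in Sox17, 4 of 12 in Kdr and 12 of 13 in Hif1a stood alone as defined above. In Egfl7 this held for 8 of 9 under NM_001164564 and 0 of 3 under NM_198725. Of all positions in the table at 10% or more, 80.1% stood alone. Strands of 1 CpG that differed by more than 30 points were found in 3 of 12 Kdr, 4 of 19 Hif1a, 1 of 7 Egfl7 and 1 of 5 Sox17 pairs, and in 23.7% of 89436 pairs in the table. The widest was at 4487208 in Sox17, 99.4% and 11.5%, followed by 26442252 in Egfl7, 99.8% and 13.5%. In Hif1a the pairs at 75009662, 75009145, 75009625 and 75009102 read 89.4% and 12.7%, 94.4% and 18.5%, 19.6% and 95.0%, and 26.0% and 86.9%.

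Tested singly, 111 of the 114 cytosines could be fitted, and the other 3 were methylated in all reads or in none. In edgeR 0 of the 111 had an adjusted p under 0.05, as did 0 of all 253960 positions (0%), and the smallest adjusted p was 0.919. At an unadjusted p under 0.05 there were 3 of 111 (2.70%) in edgeR, against 3.32% of all positions. In limma on levels there was 1 of 111, against 8297 of all 253960 positions. The mean was higher in exercised samples at 59 and lower at 52. Groups did not overlap at 4 of the 111 (3.60%), against 6.16% of all positions.

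The 3 cytosines with an unadjusted p under 0.05 were low ones. In Hif1a, 75009630 read 0%, 8.86% and 9.52% in exercised samples and 0% in each sedentary sample (edgeR p = 0.0211; exact permutation p = 0.4). Pooled over the 3 samples of a group, that is 13 of 220 reads against 0 of 138, which allows up to 2.17%. This limit is 3 methylated reads over the pooled reads, and it leaves out the spread between samples. The cytosine 75009641, 11 bases on, read 0%, 3.80% and 10.9% against 0% in each sedentary sample (edgeR p = 0.0385; exact permutation p = 0.4). Exercised sample 1 was at 0% at both, so the groups overlapped there. Their read counts were nearly equal in every sample, so the 2 may be read on the same molecules and need not be independent. With strands merged, the differences at 75009630 and 75009641 were 3.17 and −1.08 points. The third Hif1a cytosine by p, 75009137, went the other way, with 0% in each exercised sample and 5.88%, 1.37% and 0% in the sedentary ones, 5 methylated reads in all (edgeR p = 0.0629; exact permutation p = 0.4). The exercised samples together had 0 of 171 reads, for which the same pooled limit is 1.75%.

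In Egfl7, 26442426 read 0% in each exercised sample and 21.1%, 1.79% and 0% in sedentary samples (edgeR p = 0.0283; exact permutation p = 0.4). Sedentary sample 1 gave 8 of its 38 reads, and the exercised samples together 0 of 118, for which the same pooled limit is 2.54%. Without sedentary sample 1 the difference was −0.893 points. The next Egfl7 positions were 26442233, with 0%, 3.33% and 3.03% against 0% in each sedentary sample (edgeR p = 0.0772), and 26442196, with 0%, 0.893% and 7.83% against 0.408%, 0% and 0% (edgeR p = 0.0812; exact permutation p = 0.4 for both).

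The lowest p-values in Kdr and Sox17 did not pass 0.05 even unadjusted. In Kdr, 76374343 read 8.47% in sedentary sample 2 and 0% in the other 5 (edgeR p = 0.0838), 76374392 read 8.70% in exercised sample 3 and 0% in the others (edgeR p = 0.114), and 76374342 read 6.25% in exercised samples 1 and 2 and 0% in the others (edgeR p = 0.184), with exact permutation p-values of 1.0, 1.0 and 0.4. Each of these therefore rests on 1 or 2 samples. In Sox17, 4487192 had an edgeR p of 0.132, 4487171 of 0.157 and 4487165 of 0.160, and their exact permutation p-values were 0.4, 0.7 and 0.3. At 4487192, sedentary sample 3 was also raised, at 15.8%, against 0% in sedentary sample 2 and 0% to 3.70% in exercised samples.

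The groups were separate at 3 more cytosines beside the Egfl7 position 26442221. In Hif1a, 75009626 read 92.9%, 92.9% and 90.3% in the exercised and 100%, 93.8% and 100% in the sedentary samples, a difference of −5.89 points. In Kdr, 76374523, the CpG at −44, read 3.57%, 4.17% and 3.45% against 5.26%, 6.12% and 8.33%. In Egfl7, 26442293 read 1.96%, 1.89% and 1.49% against 0%, 0.917% and 0%, where each level above 0 is a single methylated read. The authors' deposited table classes this Egfl7 cytosine as hypermethylated, with a difference of 1.47 points and an unadjusted p of 0.0121. The authors' deposited table classes the Kdr cytosine as hypomethylated, with −2.84 points and p = 0.0391. The edgeR p-values of these were 0.400 and 0.598. Such a class is carried by 3.13% of all tested positions in the authors' deposited table.

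**Figure D5:**
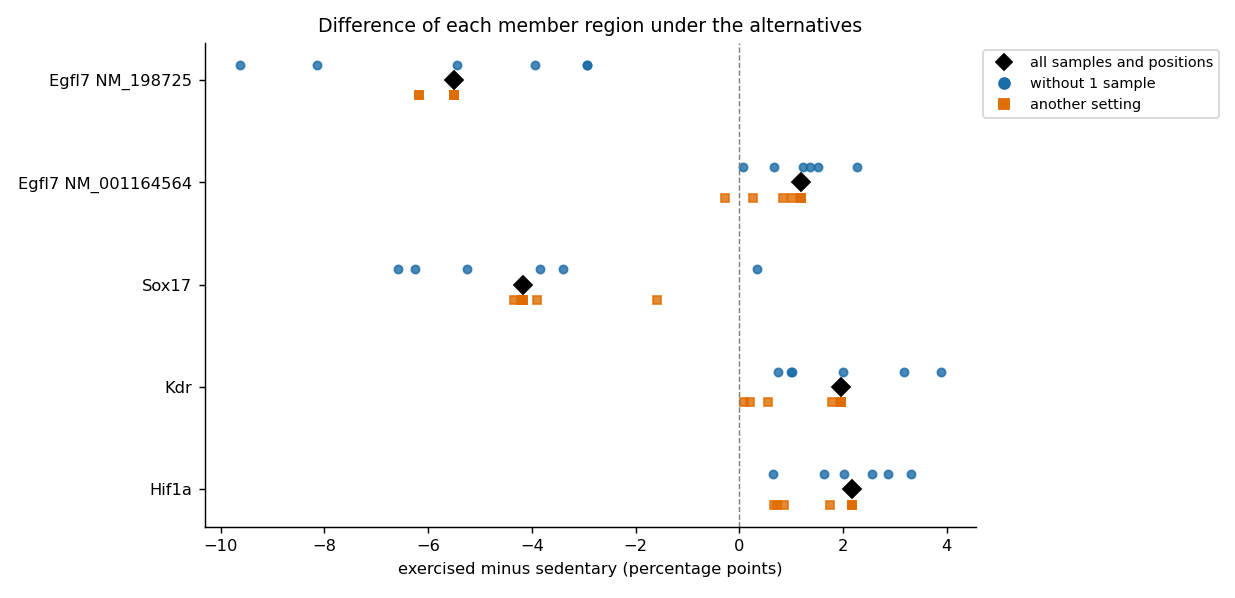
Exercised minus sedentary level in percentage points (x axis) of each member region (rows), for all samples and positions (black diamond), with 1 sample left out (blue) and under another setting (orange); the dashed line marks no difference. Sox17 crosses 0 without sedentary sample 1, at 0.338, and Egfl7 NM_001164564 crosses it without stand-alone positions, at −0.281.

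In wider lists of vessel and oxygen genes, which hold the members themselves, 0 regions had an adjusted edgeR p under 0.05. Each list is described by counts, beside those over all 10021 regions. Of these regions, 237 (2.37%) had an unadjusted edgeR p under 0.05. A majority of 6117 (61%) were higher in exercised samples, and the median difference over all regions was 0.390 points. That majority rested on exercised sample 1: without it 4984 regions were higher and 5036 lower, and without stand-alone positions 5548 were higher and 4159 lower. Of 50 endothelial identity genes, 32 were measured in 33 regions: 20 were higher and 13 lower, 0 were called and 2 had an unadjusted edgeR p under 0.05, and the median difference was 0.175 points. Of 46 angiogenic signalling genes, 36 were measured in 36 regions: 20 were higher and 16 lower, 0 were called and 1 had an unadjusted p under 0.05, with a median of 0.127 points. Without stand-alone positions the endothelial list had 12 higher and 19 lower, and without exercised sample 1 it had 16 and 17, and the angiogenic list 18 and 18.

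In these vessel lists, Tal1, a transcription factor of blood and endothelial development, had the largest difference. Its 4 positions stood at 54.1%, 65.6% and 60.7% in the exercised and 42.6%, 53.5% and 50% in the sedentary samples, with every exercised sample above every sedentary one. The difference was 11.4 points (edgeR p = 0.0458, adjusted p = 1.0; exact permutation p = 0.1), but 4.79 points with positions weighted equally in limma and 18.5 points without stand-alone positions. Timp3, an inhibitor of matrix proteases that also blocks VEGF binding to KDR, stood at 33.9%, 31.0% and 31.1% against 29.0%, 26.3% and 26.1%, again without overlap, a difference of 4.86 points (edgeR p = 0.0268, adjusted p = 1.0; exact permutation p = 0.1). It was 1.23 points without stand-alone positions and 1.90 points with positions weighted equally in limma. Rasip1, needed for vessel lumens, had 93.4% ± 3.82 against 96.3% ± 1.62 (edgeR p = 0.0264, adjusted p = 1.0; exact permutation p = 0.3). Arhgef15, an endothelial exchange factor, had 67.1% ± 5.76 against 74.5% ± 3.85, Nrp2, a VEGF co-receptor, 28.3% ± 1.85 against 25.6% ± 1.87, and Angptl4, a secreted lipase inhibitor, 31.7% ± 2.67 against 35.5% ± 5.41. These last 4 overlapped between groups (SD, n = 3). Groups were separate in 2 of the 33 endothelial and 2 of the 36 angiogenic regions, against 7.25% of all 10021 regions.

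Among 23 genes of oxygen sensing and the hypoxia-inducible factors, 17 were measured in 17 regions: 11 were higher and 6 lower, 0 were called, 0 had an unadjusted edgeR p under 0.05, and the median was 0.261 points. Of 42 hypoxia target genes, 33 were measured in 34 regions: 17 were higher and 17 lower, 0 were called, 0 had an unadjusted edgeR p under 0.05, and the median was 0.0504 points. Over all 10021 regions, 2.37% had such a p. Without exercised sample 1 the sensing list turned to 5 higher and 12 lower and the target list to 13 and 21, so no direction is given for any of the 4 lists. In the sensing list, after Hif1a, Rbx1, a subunit of the ligase that marks HIF1A for degradation, had 30.2% ± 3.19 against 33.2% ± 2.24, and Eloc, another subunit, 41.1% ± 7.59 against 37.5% ± 4.17. Among the targets, Bhlhe40, a transcriptional repressor, stood at 23.4%, 22.3% and 21.9% against 20.2%, 20.2% and 18.5%, without overlap (2.92 points, edgeR p = 0.0802; exact permutation p = 0.1). Ddit4, an inhibitor of mTORC1, had the largest difference, 9.24 points, but exercised sample 1 stood at 57.2% and the other 5 between 29.0% and 33.0%. Tpi1, a glycolytic enzyme, had 55.6% ± 8.68 against 50.2% ± 3.55, and Bnip3l, a mitophagy receptor, 14.9% ± 0.415 against 18.4% ± 3.63, both with overlap (SD, n = 3). Groups were separate in 0 of the 17 sensing and 2 of the 34 target regions, against 7.25% of all 10021 regions.

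Total coverage, summed over the listed cytosines, ran from 9153526 reads in sedentary sample 3 to 18656340 in sedentary sample 2. The median coverage per cytosine ran from 27 to 59 reads. Mean coverage was 27.5 reads per cytosine in the Egfl7 region of NM_198725, 36.0 in Sox17, 41.2 in Kdr, 60.1 in Hif1a and 63.6 in the Egfl7 region of NM_001164564.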

How the data were processed

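The authors deposited 1 table with, per cytosine and sample, the methylated fraction (0 to 1) and the count of covering reads, at least 10 in every sample, and for each cytosine also a class, a p-value and the difference between group means. The submitters' processing notes list Bismark 0.7.7, Bowtie 0.12.9, cutadapt 1.0, Trim Galore 0.2.5 and the build mm9, with no roles. Fraction times coverage was whole within 0.00236 of a read and gave methylated and unmethylated counts. Symbols were matched for 10652 transcripts through RefSeq on GRCm38.p6. Counts were summed over regions with at least 3 positions and tested with edgeR 4.0.16 in R 4.3.3, with a term for each sample, a group term on methylated counts and no dispersion trend, over all regions or all cytosines. Cytosines or regions with no methylated or no unmethylated read were left out. Exact permutation tests were two-sided, over 10 splits. Limma 3.58.1 on levels, leaving out each sample, a replicate block, a coverage of at least 20, no coverage above the 99.9th percentile, merged strands, no minimum of positions per region, and no stand-alone positions were alternatives.

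Deposited cytosines were placed on RefSeq promoters by spacing: of 6140 regions with at least 8 positions in a 300-base window, 2113 matched completely at 1 shift, and for 1686 (79.8%) of these the start lay within 30 bases of 2000 bases into the region. Sox17 was not placed. The members, gene lists, tests and naming rule were chosen with earlier results of these data known. The naming rule took the 4 genes; in each list the 2 regions with the largest difference and the 2 with the smallest p; in each member the 3 cytosines with the smallest p; and the 3 regions most alike by Pearson r among those with at least 10 positions and an SD over samples of at least 2 points. The edgeR script was tested on simulated data. Exon and UTR positions in mm9 were not used here.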

Additional observations from a re-analysis of the deposited data

How the results depend on the processing

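Of the alternatives run on the member regions and the counts of calls, 93 gave no reversal and no change of side, 2 reversed and 1 moved; among single list genes and cytosines 248 did not reverse and 5 did. List medians were all above 0 with all samples and positions, but 14 of their 55 values under alternatives were below 0, with at least 1 for each list and 1 for all regions. Apart from list medians, the reversals were the Egfl7 region of NM_001164564 without stand-alone positions (−0.281 points), Sox17 without 1 sample (−6.58 to 0.338), Arhgef15 in unweighted limma (0.515), Eloc without 1 sample (−0.160 to 7.43), the Sox17 cytosine 4487171 without 1 sample (−18.7 to 0.434), and, with strands merged, the cytosines Hif1a 75009641 (−1.08) and Kdr 76374342 (−0.636). With strands merged, 1 CpG of the whole table passed in edgeR, chosen for mention after its values were seen: Grb10 at 11936714 on chromosome 11 (−9.71 points, adjusted p = 0.00615), no member. Leaving out 1 sample gave −9.63 to −2.93 points for Egfl7 NM_198725, 0.0659 to 2.28 for NM_001164564, 0.740 to 3.89 for Kdr and 0.659 to 3.31 for Hif1a, with 0 regions and 0 cytosines called. List medians then ranged from −0.0443 to 0.480 (endothelial), −0.0607 to 0.402 (angiogenic), −0.318 to 1.35 (sensing), −0.624 to 0.400 (targets) and −0.00956 to 0.881 (all regions). Without stand-alone positions they were −0.159 (endothelial), −0.0614 (sensing) and −0.144 (targets), and in unweighted limma −0.0345 (targets). Without stand-alone positions Kdr differed by 0.206 points, and with a coverage of at least 20 Sox17 by −1.58 and Hif1a by 0.860. Without exercised 3, Hif1a had an unadjusted edgeR p of 0.0463 (adjusted 0.804), and without exercised 1 Ddit4 fell to 0.517 points. Same-numbered samples did not deviate together (correlations of 0.0190, −0.219 and −0.111); with the replicate number as a block, edgeR called 0 regions (204 unadjusted) and 0 cytosines (1851 unadjusted, against 8424 without the block), and 0 member cytosines had an unadjusted p under 0.05. Depth limits the 3-cytosine Egfl7 region most.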

Other observations

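For each member region, the 3 regions whose levels followed it most closely over the 6 samples are given as a description only, since 2739 or 2740 regions were compared over 6 points that share their libraries and depth. The Egfl7 region of NM_198725 was most like Speg (Pearson r = 0.964), Adcy1 (0.956) and Romo1 (0.944). The Egfl7 region of NM_001164564 was most like Aplp2 (r = 0.991), Lin7c (0.988) and Cav2 (0.986). Sox17 was most like Snrpa1 (r = 0.988), Cmpk2 (0.987) and Glud1 (0.987). Kdr was most like Rab12 (r = 0.989), Aph1c (0.989) and Apba1 (0.988), and Hif1a was most like Slc5a7 (r = 0.992), Ndufv3 (0.990) and Trim2 (0.989).

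Of all cytosines in the table at a mean level of 10% or more, 80.1% stood alone among neighbours whose median was under 10%, 66638 of 83230. Among CpGs placed on promoters and read on both strands, 80.2% of 3572 in CCGG differed by more than 30 points between strands, and 2.76% of 10665 elsewhere.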
